A study of Homo sapiens with 30 samples.

Results

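The step examined here sets A375 melanoma cells that had crossed a 5 µm membrane in 10 rounds against parental cells that had been through 0 rounds, both from the ITGB4-negative side of a cell sort. Its members are 6 of the 30 libraries of polyadenylated RNA in the series, taken by their titles: 3 of Bottom 10 negative cells and 3 of Parental negative cells. All cells were A375, an established human melanoma line that carries an activating BRAF mutation. Bottom 10 negative cells came from a population collected below the membrane and expanded after each of 10 rounds, and scored negative for ITGB4 staining against an unstained gate. Parental negative cells were A375 cells with the same ITGB4 score that had not been put through a membrane. Both were sorted cells of the uncloned line, and the labels do not give whether the sort came before or after the 10 rounds. The membranes were coated with fibronectin underneath, and each round lasted a day, per the labels. Other groups are used only where a direct comparison needs them: Top 10 negative cells stayed above the membrane in 10 rounds, Bottom 5 negative cells crossed in 5 rounds, and Bottom 10 positive and Parental positive cells are the same step in the positive sort. The series text speaks of 5 rounds while the titles give 10, and the titles were followed. The labels do not say on which of the 2 sorters a sample was run, nor whether replicates grew in separate dishes. Each p-value thus rests on a spread among libraries that may be technical. Unless another fit is named, the gene tests estimated that spread over all 30 libraries by group, not from these 6 alone.

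Integrin β4 pairs with integrin α6 to form a laminin receptor, which anchors epithelial cells to the basement membrane at hemidesmosomes and also occurs on some tumour cells. Pores narrower than a nucleus make a migrating cell deform it, and repeated passage is used to enrich or induce cells that move well under confinement. Melanoma cells are known to shift between a pigmented, melanocyte-like state and dedifferentiated states with more invasive behaviour, and transcription factors of the neural crest, matrix proteins and growth factors differ between these states. In the design, the 10 rounds and the time in culture that they took go together, so crossing and culture cannot be told apart in the comparison with parental cells.

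Gene counts were 17278398, 29134945 and 23057031 in the Bottom 10 negative libraries, against 16403632, 18007393 and 16931156 in the Parental negative libraries. Of 26364 listed genes, 15381 were tested. Parental negative replicate 1 stood apart from replicates 2 and 3 of its group: over tested genes their log levels correlated with it at 0.962 and 0.938, and with each other at 0.9825. Reads outside any annotated gene made up 12.8, 13.2 and 13.1% in the Bottom 10 negative libraries, against 16.6, 16.5 and 15.4% in the Parental negative libraries. These shares did not overlap, and their part in the results was not tested. The melanoma markers SOX10, S100B, PRAME and AXL were present in every library, whereas PMEL and TYRP1 averaged under 1 CPM, the count scaled to library size, in both groups. Of 11 listed melanoma markers 9 were tested, and the listed ones not named here are not given singly. Summed over the 9 tested, levels were 1563 to 1860 CPM in Bottom 10 negative cells and 1216 to 2001 CPM in Parental negative cells.

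The transcript of the sorted protein, ITGB4, had 34.7, 87.8 and 24.6 CPM in Bottom 10 negative cells, against 24.6, 33.7 and 25.1 CPM in Parental negative cells. Bottom 10 negative replicate 2 was the high one, and the groups overlapped (log2 fold change 0.82, SE 0.85, adjusted p in edgeR 1.00). For comparison, Parental positive cells had 168, 96.7 and 35.2 CPM, of which the lowest library was close to the Parental negative ones. CPM carry trimmed-mean (TMM) scaling, and are set beside each other between samples of a gene and not between genes. Log2 fold changes are Bottom 10 negative over Parental negative unless another pair is named, and carry the standard error (SE) of the fit. A gene is called when its adjusted p is under 0.05 in edgeR's quasi-likelihood test, with Benjamini-Hochberg adjustment over all 15381 genes.

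The 10 rounds of crossing went with a small set of called genes. The test called 50 genes, 0.325% of those tested, of which 21 were higher (0.137%) and 29 lower (0.189%) in Bottom 10 negative cells. The genes called higher included the protease gene TMPRSS15, a basement membrane peroxidase, a growth factor, ion channel subunits, phosphatases and transcription factors. Those called lower included neural crest factors, an anchoring collagen, guanine nucleotide exchange factors and zinc finger genes. Their higher group averaged between 0.929 and 149 CPM, and 33 of the 50 averaged at least 5 CPM in 1 of the groups. In all 50 the 3 Bottom 10 negative libraries lay apart from the 3 Parental negative libraries, as they did in 17% of all genes tested. The count was 14, 14 and 24 without Bottom 10 negative replicates 1, 2 and 3, and 20, 5 and 39 without Parental negative replicates 1, 2 and 3. With only these 6 libraries in the edgeR fit it was 0, with 1427 of 14088 genes at an unadjusted p under 0.05. DESeq2, fitted to all 30 libraries and not to these 6 alone, called 174 genes, among them all 50.

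**Figure D1:**
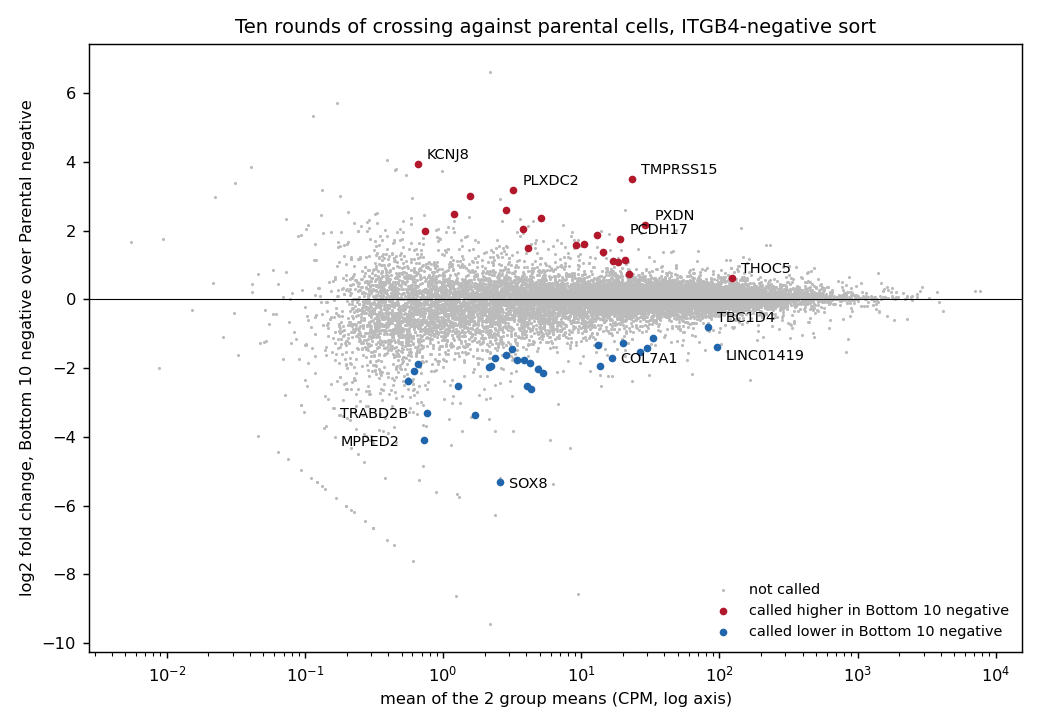
Each point is 1 of 15381 tested genes, with the mean of the 2 group means in CPM on a log axis and the log2 fold change of Bottom 10 negative over Parental negative cells on the vertical axis. Red points are the 21 genes called higher and blue points the 29 called lower in Bottom 10 negative cells, and they range from SOX8 at -5.32 to KCNJ8 at 3.93.

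Only 5 of the 50 genes were called in each of the 6 fits that left out 1 library, and their promoters are shown because the gene level rests least on a single library there. They were TMPRSS15, PTPN22 and ARNTL2, higher in Bottom 10 negative cells, and ZNF208 and TRABD2B, lower. The sequences are those of RefSeq on GRCh38.p14, from 250 bases before to 50 after the gene start, read 5′ to 3′ on the strand of the gene. The counts had been made on hg19, per the submitters' processing notes. ARNTL2 is listed there as BMAL2. Capitals mark a match on either strand to TGANTCA or to GGAATG, the binding motif of TEAD factors. TGANTCA is a loose form of the binding motif of AP-1 factors, as it takes any base in the middle.
TMPRSS15 (chr21:18403736-18404035, minus strand): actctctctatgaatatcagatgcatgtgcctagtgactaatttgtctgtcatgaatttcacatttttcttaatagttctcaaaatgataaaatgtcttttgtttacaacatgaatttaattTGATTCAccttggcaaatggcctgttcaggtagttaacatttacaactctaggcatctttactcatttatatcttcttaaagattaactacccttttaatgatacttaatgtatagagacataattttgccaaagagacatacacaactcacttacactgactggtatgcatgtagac
PTPN22 (chr1:113871663-113871962, minus strand): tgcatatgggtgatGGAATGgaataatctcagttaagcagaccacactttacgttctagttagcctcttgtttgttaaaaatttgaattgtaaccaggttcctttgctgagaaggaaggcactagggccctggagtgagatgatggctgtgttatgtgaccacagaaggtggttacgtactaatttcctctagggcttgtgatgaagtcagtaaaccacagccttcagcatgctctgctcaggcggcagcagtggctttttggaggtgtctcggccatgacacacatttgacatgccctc
ARNTL2 (chr12:27332586-27332885, plus strand): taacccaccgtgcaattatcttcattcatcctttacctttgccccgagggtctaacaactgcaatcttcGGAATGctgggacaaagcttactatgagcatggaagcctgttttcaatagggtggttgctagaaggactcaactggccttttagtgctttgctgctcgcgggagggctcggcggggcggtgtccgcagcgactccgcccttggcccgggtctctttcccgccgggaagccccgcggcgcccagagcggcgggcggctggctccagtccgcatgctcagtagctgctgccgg
ZNF208 (chr19:22010894-22011193, minus strand): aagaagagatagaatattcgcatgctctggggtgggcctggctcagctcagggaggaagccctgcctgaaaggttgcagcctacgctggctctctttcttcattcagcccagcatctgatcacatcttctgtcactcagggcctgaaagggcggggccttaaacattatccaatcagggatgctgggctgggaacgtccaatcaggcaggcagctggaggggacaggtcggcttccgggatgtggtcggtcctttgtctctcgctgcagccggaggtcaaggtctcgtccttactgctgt
TRABD2B (chr1:47997336-47997635, minus strand): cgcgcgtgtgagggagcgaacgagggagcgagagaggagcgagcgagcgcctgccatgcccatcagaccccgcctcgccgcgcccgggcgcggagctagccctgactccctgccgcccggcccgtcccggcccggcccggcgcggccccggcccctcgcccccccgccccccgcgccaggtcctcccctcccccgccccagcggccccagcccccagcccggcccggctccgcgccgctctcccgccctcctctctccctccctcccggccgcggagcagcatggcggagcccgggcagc
TMPRSS15 held the loose AP-1 letters, as TGATTCA, and PTPN22 and ARNTL2 the TEAD letters, while neither motif was in the ZNF208 and TRABD2B windows. Guanine and cytosine made up 31.7% of the TMPRSS15 window and 82.3% of the TRABD2B window. Over all called genes with a promoter in the table, TGANTCA was in 1 of 19 higher and 2 of 19 lower genes, 5.26 and 10.5%, against 4.74% of tested genes and 7.76% of all 27305 promoters. GGAATG was in 2 of 19 higher and 2 of 19 lower genes, 10.5% each, against 11.1% of tested genes and 14% of all promoters. The counts among called genes were thus near those of all promoters, and a match describes letters only.

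Among extracellular and matrix genes TMPRSS15, PXDN, PDGFB and PLXDC2 rose in Bottom 10 negative cells, and the collagen COL7A1 fell. TMPRSS15 encodes enteropeptidase, a serine protease known from the intestine, where it activates trypsinogen. It had 36.9, 62.4 and 29.5 CPM in Bottom 10 negative cells, against 5.96, 3.44 and 2.08 CPM in Parental negative cells (log2 fold change 3.49, SE 0.48, adjusted p in edgeR 0.00254, an 11.2-fold difference). PXDN, a peroxidase that crosslinks collagen IV in basement membranes, had 49.9, 45.5 and 47.4 CPM in Bottom 10 negative cells, against 12.3, 11.2 and 8.45 CPM in Parental negative cells (log2 fold change 2.16, SE 0.36, adjusted p in edgeR 0.00740). For both genes the lowest Bottom 10 negative library was more than 3-fold above the highest Parental negative one. PDGFB, a chain of platelet-derived growth factor, had 6.33, 13.5 and 5.85 CPM in Bottom 10 negative cells, against 1.29, 1.53 and 2.2 CPM in Parental negative cells (log2 fold change 2.35, SE 0.52, adjusted p in edgeR 0.0459), with no overlap and a wide spread among the Bottom 10 negative libraries. Its partner chain PDGFA had 9.84, 15.7 and 13.3 CPM in Bottom 10 negative cells, against 3.33, 5.19 and 5.41 CPM in Parental negative cells, apart as well but not called (log2 fold change 1.48, SE 0.35, adjusted p in edgeR 0.0778). PLXDC2, a transmembrane protein with a plexin-like domain, had 5.54, 7.72 and 4.16 CPM in Bottom 10 negative cells, against 0.818, 0.212 and 0.901 CPM in Parental negative cells (log2 fold change 3.17, SE 0.54, adjusted p in edgeR 0.00740). With 1 library left out, the threshold was missed for PXDN and PLXDC2 without Parental negative replicate 2 (adjusted p up to 0.0617). PDGFB lost the call whichever of the 6 libraries was left out (adjusted p 0.0621 to 0.394). TMPRSS15 kept the call in each of the 6 fits that left out a library.

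COL7A1 was the 1 collagen called, and it fell. It forms the anchoring fibrils that fasten the basement membrane to the tissue beneath, and had 6.39, 6.63 and 10.4 CPM in Bottom 10 negative cells, against 30.9, 26.5 and 18.6 CPM in Parental negative cells (log2 fold change -1.70, SE 0.31, adjusted p in edgeR 0.0129). Of 29 tested collagens 9 were above 0, and their median log2 fold change was -0.48, against 0.00331 for all genes, of which 50.5% were above 0. Without Parental negative replicate 1, which held the highest collagen level of the 6 libraries, that median was -0.05. COL4A6, a basement membrane collagen chain, had a log2 fold change of -1.96 and was not called. Its level was low, at 0.181 CPM in Bottom 10 negative and 0.729 CPM in Parental negative cells on average. Among 30 basement membrane and matrix glycoprotein genes PXDN was the 1 called, and 16 were above 0 (median 0.05), or 20 with a median of 0.32 without Parental negative replicate 1. LAMA1, a laminin chain, had 10.5, 16.4 and 14.1 CPM in Bottom 10 negative cells, against 2.98, 4.13 and 3.32 CPM in Parental negative cells, with no overlap, and missed the threshold (log2 fold change 1.97, SE 0.48, adjusted p in edgeR 0.0903). Among 38 matrix proteases and inhibitors TMPRSS15 was the 1 called. ADAMTS9, a protease of proteoglycans, had a log2 fold change of -1.94 (adjusted p in edgeR 0.0958). TAGLN, an actin-binding protein of contractile cells, was the 1 of 38 actomyosin and focal adhesion genes called, and had 1.58, 1.46 and 1.17 CPM in Bottom 10 negative cells, against 3.33, 5.03 and 4.67 CPM in Parental negative cells (log2 fold change -1.63, SE 0.36, adjusted p in edgeR 0.0479). Calls ended for COL7A1 without Bottom 10 negative replicates 1 and 2 or Parental negative replicates 1 and 2 (adjusted p up to 0.137). TAGLN lost the call whichever of the 6 libraries was left out (adjusted p 0.0664 to 0.236).

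The hemidesmosome genes, where ITGB4 acts, held no called gene. Of 11 tested, 8 were above 0, with a median of 0.21, and 5 of 11 with a median of -0.05 without Parental negative replicate 1. ITGA6, the partner of ITGB4, had 409, 404 and 452 CPM in Bottom 10 negative cells, against 259.6, 361 and 364 CPM in Parental negative cells, with no overlap but not called (log2 fold change 0.36, SE 0.27, adjusted p in edgeR 0.925). Of 16 integrin subunits 8 were above 0, and 12 without that library. ITGA4 and ITGA9 had the smallest p among the integrins, with log2 fold changes of 0.86 and -1.66, and neither was called. ITGA9 reached 68.3 CPM in Parental negative replicate 1, against 16.5 and 9.85 CPM in replicates 2 and 3 of that group.

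Among transcription factors, 2 genes were called higher and 2 lower from the list of 28 tested SOX, EYA and other developmental factors. FOXP1, a forkhead repressor, had 12.6, 18 and 10.4 CPM in Bottom 10 negative cells, against 5.73, 3.44 and 4.45 CPM in Parental negative cells (log2 fold change 1.59, SE 0.31, adjusted p in edgeR 0.0196). ZFPM2, which binds and modulates GATA factors, had 20.1, 22.7 and 19.7 CPM in Bottom 10 negative cells, against 7.31, 7.83 and 9.07 CPM in Parental negative cells (log2 fold change 1.37, SE 0.22, adjusted p in edgeR 0.00695). Their levels were 3.01-fold and 2.58-fold higher in Bottom 10 negative cells, with no overlap between the groups. EYA1, a coactivator and phosphatase of organ development, had 16.4, 9.98 and 14.9 CPM in Bottom 10 negative cells, against 53.8, 36 and 28.5 CPM in Parental negative cells (log2 fold change -1.52, SE 0.29, adjusted p in edgeR 0.0188). SOX8, a factor of the neural crest, had 0.0565, 0.232 and 0.0433 CPM in Bottom 10 negative cells, against 12.6, 1.43 and 1.24 CPM in Parental negative cells (log2 fold change -5.32, SE 1.11, adjusted p in edgeR 0.0304). SOX8 rested on 9 counts in all 3 Bottom 10 negative libraries together and 264 in the Parental negative ones, mostly in Parental negative replicate 1. The list's median was -0.12, with 11 of 28 genes above 0, and 14 of 28 were above 0 without Parental negative replicate 1. In the fits without 1 library, calls were lost for FOXP1 without Bottom 10 negative replicates 1 and 2 or Parental negative replicates 2 and 3 (adjusted p up to 0.183), for ZFPM2 without Parental negative replicate 2 (0.0517) and for EYA1 and SOX8 without Bottom 10 negative replicates 1, 2 and 3 or Parental negative replicates 1 and 2 (up to 0.302).

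Other called regulators stood outside that list. ARNTL2, a basic helix-loop-helix partner of CLOCK, had 21.4, 22.5 and 25.3 CPM in Bottom 10 negative cells, against 9.65, 11.3 and 11.2 CPM in Parental negative cells (log2 fold change 1.11, SE 0.16, adjusted p in edgeR 0.00337). FBXL7, an F-box protein that picks targets for ubiquitination, had 15, 16 and 16 CPM in Bottom 10 negative cells, against 5.20, 5.98 and 4.28 CPM in Parental negative cells (log2 fold change 1.60, SE 0.28, adjusted p in edgeR 0.00974). The 3 libraries of each group were tight around means of 15.7 ± 0.558 CPM and 5.15 ± 0.851 CPM for FBXL7 and of 23.1 ± 1.99 CPM and 10.7 ± 0.936 CPM for ARNTL2 (Bottom 10 negative and Parental negative cells, SD, n = 3 each). CEBPA, a leucine zipper factor of myeloid and fat cells, had 1.13, 1.13 and 1.08 CPM in Bottom 10 negative cells, against 4.21, 3.23 and 3.43 CPM in Parental negative cells (log2 fold change -1.70, SE 0.31, adjusted p in edgeR 0.0129). PDX1, a homeobox factor of the pancreas, was low throughout, at 0.236 ± 0.0620 CPM in Bottom 10 negative and 0.996 ± 0.378 CPM in Parental negative cells (log2 fold change -2.08, SE 0.43, adjusted p in edgeR 0.0304, 16 counts against 54). The zinc finger genes ZNF208 and ZNF536 had log2 fold changes of -2.02 ± 0.32 and -1.97 ± 0.42 (adjusted p in edgeR 0.00482 and 0.0337). ZNF208 had 1.58, 1.96 and 2.21 CPM in Bottom 10 negative cells, against 6.37, 8.36 and 8.73 CPM in Parental negative cells, all 3 Bottom 10 negative libraries being under the Parental negative ones. Zinc finger genes have close copies in the genome, so how reads were divided among them is uncertain. With 1 library left out, the threshold was missed for FBXL7 without Parental negative replicates 1, 2 and 3 (adjusted p up to 0.0523) and for CEBPA and PDX1 without Bottom 10 negative replicates 1, 2 and 3 or Parental negative replicates 1 and 2 (up to 0.305). ZNF536 lost the call whichever of the 6 libraries was left out (adjusted p 0.0838 to 0.305). ARNTL2 and ZNF208 kept the call in each of the 6 fits that left out a library.

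Called phosphatases, kinases, receptors and regulators of GTPases are described next, again arranged by known role after the calls and not as a tested group. PTPN22, a tyrosine phosphatase known for restraining lymphocyte receptor signals, had 7.29, 6.13 and 4.77 CPM in Bottom 10 negative cells, against 1.87, 2.33 and 2.25 CPM in Parental negative cells (log2 fold change 1.49, SE 0.24, adjusted p in edgeR 0.00482). PTPRD, a receptor tyrosine phosphatase of synapses and a tumour suppressor, had 6.84, 6.83 and 4.59 CPM in Bottom 10 negative cells, against 1.46, 0.635 and 2.31 CPM in Parental negative cells (log2 fold change 2.05, SE 0.44, adjusted p in edgeR 0.0343). PIM1, a serine and threonine kinase, had 25.8, 37.6 and 21.8 CPM in Bottom 10 negative cells, against 9.88, 14.4 and 14.2 CPM in Parental negative cells (log2 fold change 1.15, SE 0.24, adjusted p in edgeR 0.0304). Each of the 3 was higher in every Bottom 10 negative library than in any Parental negative library. On the lower side, EPHB3, an ephrin receptor, had 12.2, 10.0 and 13.3 CPM in Bottom 10 negative cells, against 33.3, 26.9 and 25.4 CPM in Parental negative cells (log2 fold change -1.27, SE 0.25, adjusted p in edgeR 0.0196). VAV3 and MCF2L, both guanine nucleotide exchange factors, had log2 fold changes of -2.52 ± 0.54 and -1.43 ± 0.30 (adjusted p in edgeR 0.0340 and 0.0304). MCF2L had 17.4, 15 and 15.9 CPM in Bottom 10 negative cells, against 54.3, 43.6 and 32.1 CPM in Parental negative cells, and Parental negative replicate 1 was its high library. MCF2L overlaps its antisense gene MCF2L-AS1, and without a stated strand setting reads of the pair cannot be told apart. TBC1D4, which restrains Rab GTPases in insulin-dependent vesicle traffic, had the highest mean in Bottom 10 negative cells among the lower calls, at 57.6, 48.4 and 74.4 CPM in Bottom 10 negative cells, against 119, 103 and 92.8 CPM in Parental negative cells (log2 fold change -0.81, SE 0.17, adjusted p in edgeR 0.0340). Calls ended for PTPRD, EPHB3, VAV3 and MCF2L without Bottom 10 negative replicates 1, 2 and 3 or Parental negative replicates 1 and 2 (adjusted p up to 0.305), for PIM1 without Bottom 10 negative replicates 1 and 2 or Parental negative replicates 1, 2 and 3 (up to 0.340) and for TBC1D4 without Bottom 10 negative replicates 1 and 2 or Parental negative replicates 1 and 2 (up to 0.340). PTPN22 kept the call in each of the 6 fits that left out a library.

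The called ion channel subunits and neuronal adhesion proteins are given next, an arrangement by known role made after the calls. KCNJ8, a pore subunit of ATP-sensitive potassium channels, had 1.64, 1.13 and 0.953 CPM in Bottom 10 negative cells, against 0.117, 0 and 0.113 CPM in Parental negative cells (log2 fold change 3.93, SE 0.78, adjusted p in edgeR 0.0196), which is 85 counts in the 3 Bottom 10 negative libraries and 4 in the Parental negative ones. Reads of KCNJ8 and of the antisense gene KCNJ8-AS1, which overlaps it, cannot be told apart either. TRPC4, a cation channel, had 2.21, 1.86 and 2.04 CPM in Bottom 10 negative cells, against 0.409, 0.265 and 0.394 CPM in Parental negative cells (log2 fold change 2.50, SE 0.46, adjusted p in edgeR 0.0129). FAM155A, an auxiliary subunit of the sodium leak channel, had 23.6, 22.8 and 15.2 CPM in Bottom 10 negative cells, against 7.60, 4.02 and 5.18 CPM in Parental negative cells (log2 fold change 1.88, SE 0.38, adjusted p in edgeR 0.0266). KCNJ8 was near 0 in Parental negative cells, and all 3 genes were higher in every Bottom 10 negative library. CNTN5 and PCDH17 encode an immunoglobulin-type and a cadherin-type adhesion protein of neurons. PCDH17 had 29.1, 30.0 and 29.7 CPM in Bottom 10 negative cells, against 9.82, 6.56 and 9.97 CPM in Parental negative cells (log2 fold change 1.75, SE 0.31, adjusted p in edgeR 0.00990), and CNTN5 had a log2 fold change of 3.01 ± 0.63 (adjusted p in edgeR 0.0304). KCTD8, an auxiliary subunit of GABA-B receptors, and BTBD11 had log2 fold changes of 1.98 ± 0.42 and 2.59 ± 0.44. The level of KCTD8 was low, at 1.19 CPM in Bottom 10 negative and 0.298 CPM in Parental negative cells on average. In the fits without 1 library, calls were lost for KCNJ8 without Bottom 10 negative replicates 1 and 2 or Parental negative replicates 1, 2 and 3 (adjusted p up to 0.156), for TRPC4 without Bottom 10 negative replicate 1 or Parental negative replicates 1 and 2 (up to 0.113), for FAM155A and CNTN5 without Bottom 10 negative replicates 1 and 2 or Parental negative replicates 2 and 3 (up to 0.208) and for PCDH17 and BTBD11 without Parental negative replicate 2 (up to 0.0953). KCTD8 lost the call whichever of the 6 libraries was left out (adjusted p 0.0640 to 0.235).

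The remaining called genes had varied roles. THOC5, a subunit of the mRNA export complex, was the called gene with the highest mean among those that rose, at 142, 148 and 157 CPM in Bottom 10 negative cells, against 99, 95.3 and 99.4 CPM in Parental negative cells, a 1.53-fold difference (log2 fold change 0.61, SE 0.14, adjusted p in edgeR 0.0479). TSPAN5, a tetraspanin, and RAB8B, a small GTPase of vesicle traffic, had log2 fold changes of 1.08 ± 0.19 and 0.73 ± 0.16. TRABD2B, a membrane metalloprotease that cleaves and inactivates Wnt proteins, had 0.0565, 0.199 and 0.130 CPM in Bottom 10 negative cells, against 1.99, 1.06 and 1.13 CPM in Parental negative cells (log2 fold change -3.30, SE 0.49, adjusted p in edgeR 0.00337), from 10 counts in Bottom 10 negative and 74 in Parental negative libraries. MPPED2, a metallophosphodiesterase, had 0.170, 0.0332 and 0.0433 CPM in Bottom 10 negative cells, against 1.52, 1.64 and 0.957 CPM in Parental negative cells (log2 fold change -4.10, SE 0.70, adjusted p in edgeR 0.00740), from 5 and 74 counts. LRP3, a member of the LDL receptor family, had 5.99, 4.08 and 6.97 CPM in Bottom 10 negative cells, against 23.6, 23.9 and 17.3 CPM in Parental negative cells (log2 fold change -1.93, SE 0.36, adjusted p in edgeR 0.0135). It was the 1 called gene of 31 tested on the WNT list, which does not hold TRABD2B. The long noncoding RNA LINC01419 was the lower call with the highest mean in Parental negative cells, at 52.4, 66.9 and 40.2 CPM in Bottom 10 negative cells, against 152, 138 and 126 CPM in Parental negative cells (log2 fold change -1.38, SE 0.26, adjusted p in edgeR 0.0135). With 1 library left out, the threshold was missed for TSPAN5 and LRP3 without Bottom 10 negative replicates 1 and 2 or Parental negative replicates 1 and 2 (adjusted p up to 0.154), for MPPED2 without Bottom 10 negative replicates 2 and 3 or Parental negative replicate 2 (up to 0.103) and for LINC01419 without Bottom 10 negative replicates 1 and 3 or Parental negative replicates 1 and 2 (up to 0.127). THOC5 and RAB8B lost the call whichever of the 6 libraries was left out (adjusted p 0.0850 to 0.305). TRABD2B kept the call in each of the 6 fits that left out a library.

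A last set of 12 lower genes is given by log2 fold change alone. The monoamine oxidase MAOA was at -1.84, the secreted kinase PKDCC at -1.76 and the phospholipid flippase ATP8A2 at -1.94. The ion channel subunit P2RX6 was at -1.46, TMC6 at -1.14 and PCSK1N, an inhibitor of a prohormone convertase, at -2.51. PALD1, LANCL3, FAM174B, EWSAT1, TNRC6C-AS1 and LOC158435 were at -2.13, -1.89, -2.36, -1.76, -2.61 and -3.38. Levels were low for LANCL3 and FAM174B, which averaged 0.278 and 0.180 CPM in Bottom 10 negative cells. In Parental negative cells they averaged 1.05 and 0.929 CPM. TNRC6C-AS1 and TMC6 lie beside each other at 1 locus, where the annotation overlaps them with TNRC6C or TMC8, and without a stated strand setting reads of overlapping genes cannot be told apart. ZNF536 and TBC1D4, given above, complete the lower calls. Calls ended for MAOA, PKDCC, P2RX6, TMC6, EWSAT1 and TNRC6C-AS1 without Bottom 10 negative replicates 1, 2 and 3 or Parental negative replicates 1 and 2 (adjusted p up to 0.318), for ATP8A2 without Bottom 10 negative replicates 2 and 3 or Parental negative replicate 2 (up to 0.137), for PCSK1N without Bottom 10 negative replicates 2 and 3 or Parental negative replicates 1, 2 and 3 (up to 0.205), for PALD1 without Bottom 10 negative replicates 1, 2 and 3 or Parental negative replicate 2 (up to 0.137), for LANCL3 without Bottom 10 negative replicates 1, 2 and 3 or Parental negative replicates 2 and 3 (up to 0.201), for FAM174B without Bottom 10 negative replicates 1 and 2 or Parental negative replicates 1, 2 and 3 (up to 0.394) and for LOC158435 without Bottom 10 negative replicates 1 and 2 or Parental negative replicate 2 (up to 0.155).

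**Figure D2:**
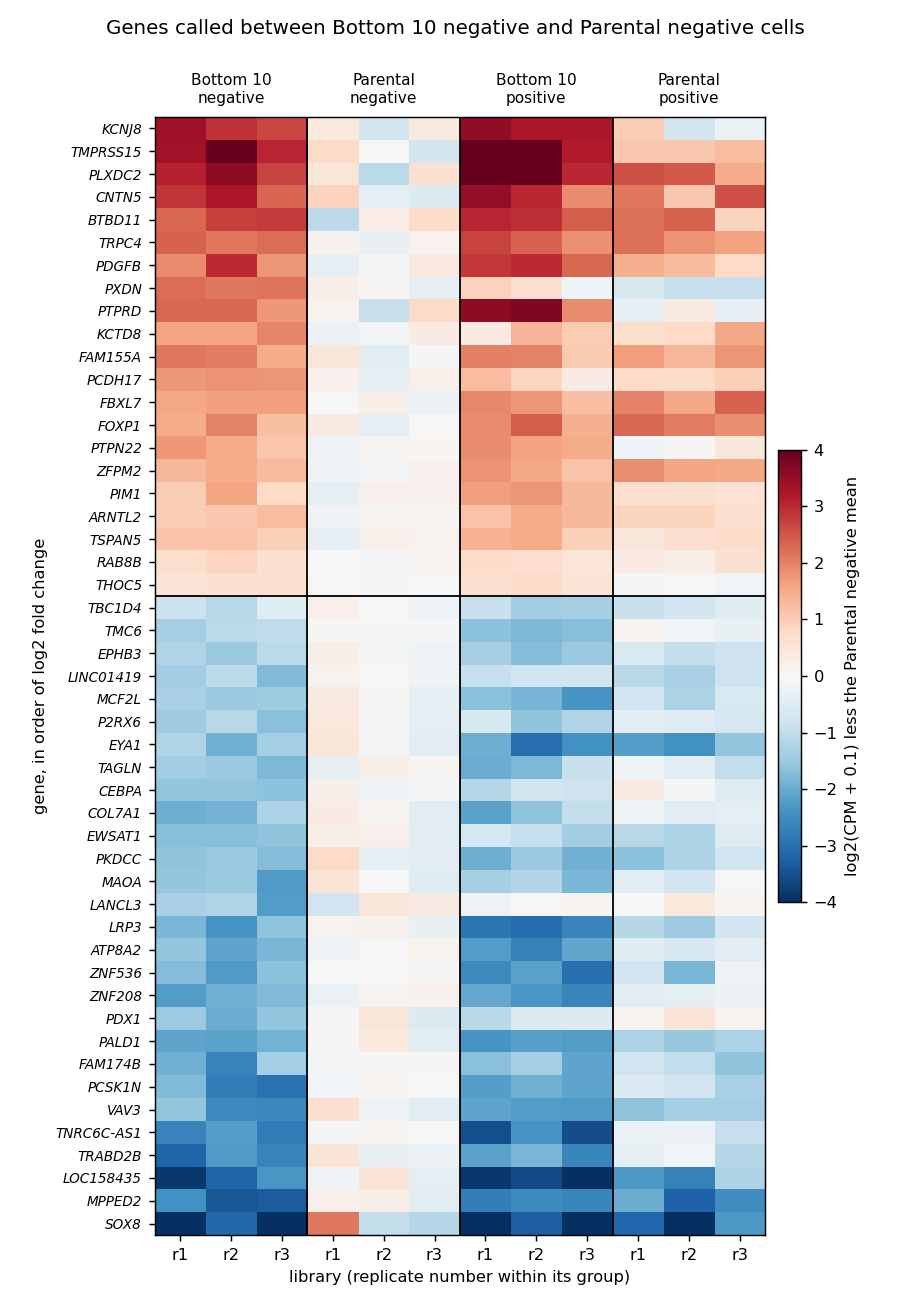
Rows are 49 of the 50 called genes in order of log2 fold change, columns are single libraries, and colour is log2(CPM + 0.1) less the mean of the 3 Parental negative libraries. The left 6 columns show Bottom 10 negative beside Parental negative cells, where SOX8 is highest in Parental negative replicate 1. The right 6 show Bottom 10 positive beside Parental positive cells, where KCNJ8 and TMPRSS15 differ as on the left and FBXL7 and ZFPM2 are high in both groups.

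The same step in the positive sort shares no library with this one and was tested alongside. Between Bottom 10 positive and Parental positive cells 38 genes were called, 0.247% of those tested, and 11 to 18 when any 1 of the 6 positive sort libraries was left out. Of these, 11 were also called in the negative sort, which is 22% of the 50 negative sort calls and 28.9% of the 38 positive sort calls, and all 11 had the same direction. Higher in both were TMPRSS15, KCNJ8, PTPRD, PTPN22 and THOC5. Lower in both were, among others, TMC6, TNRC6C-AS1, LRP3, ATP8A2 and ZNF208. TMPRSS15 had 65.8, 86.5 and 32.1 CPM in Bottom 10 positive cells, against 7.44, 7.47 and 8.47 CPM in Parental positive cells (log2 fold change 2.98, SE 0.46, adjusted p in edgeR 0.00370). PTPRD had 16.8, 18.4 and 5.13 CPM in Bottom 10 positive cells, against 1.02, 1.69 and 1.01 CPM in Parental positive cells (log2 fold change 3.44, SE 0.46, adjusted p in edgeR 7.16e-04). LRP3 had 2.74, 2.43 and 3.35 CPM in Bottom 10 positive cells, against 9.64, 7.89 and 12.4 CPM in Parental positive cells (log2 fold change -1.82, SE 0.37, adjusted p in edgeR 0.0246). In these 3 genes the 3 Bottom 10 positive libraries were clear of the 3 Parental positive ones, as in the negative sort. Of the 11 genes 5 kept the positive sort call without any 1 of its 6 libraries: TMPRSS15, PTPRD, PTPN22, TMC6 and ZNF208. LRP3 and ATP8A2 lost it in each of the 6 fits that lacked 1 library (adjusted p 0.0510 to 0.215). THOC5 kept it in 1 fit, the one without Bottom 10 positive replicate 3 (adjusted p otherwise up to 0.147). KCNJ8 lost it without Bottom 10 positive replicate 1 or Parental positive replicates 2 and 3 (up to 0.124), and TNRC6C-AS1 without Bottom 10 positive replicates 1 and 3 or Parental positive replicates 1 and 2 (up to 0.171). Of the 50 negative sort calls, 45 (90%) had the same sign in the positive sort, against 64.2% of all tested genes.

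Other genes called in the negative sort had similar levels in both positive groups. FBXL7 had 19.7, 17.5 and 12 CPM in Bottom 10 positive cells, against 20.5, 14.9 and 26.6 CPM in Parental positive cells. ZFPM2 had 28.1, 23.9 and 17.7 CPM in Bottom 10 positive cells, against 29.3, 24.3 and 23.7 CPM in Parental positive cells, and FOXP1 had 16.6, 24.1 and 12 CPM in Bottom 10 positive cells, against 22.2, 19.1 and 16.3 CPM in Parental positive cells. In these 3 genes the positive groups overlapped, and every library of both lay above the 3 Parental negative libraries. PCDH17 and FAM155A had positive sort log2 fold changes of 0.02 ± 0.30 and 0.13 ± 0.37. EYA1 had 9.67, 4.6 and 7.05 CPM in Bottom 10 positive cells, against 8.16, 7.10 and 12.6 CPM in Parental positive cells, which overlap and lie under all 3 Parental negative libraries. LINC01419 had 73.7, 81.2 and 81.5 CPM in Bottom 10 positive cells, against 64.3, 55.8 and 77.2 CPM in Parental positive cells, and again the groups overlap.

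The difference of the step between the sorts was tested as an interaction, and edgeR called 0 genes (0% of those tested), with 463 at an unadjusted p under 0.05. DESeq2 called 3: FBXL7 (adjusted p = 0.0150), ZFPM2 (adjusted p = 0.0150) and LINC01419 (adjusted p = 0.0485). For FBXL7 the log2 fold change of the negative sort exceeded that of the positive sort by 1.94 ± 0.39 (adjusted p in edgeR 0.457), and for ZFPM2 by 1.52 ± 0.31 (adjusted p in edgeR 0.457). For FOXP1 and PCDH17 the difference was 1.72 ± 0.43 and 1.73 ± 0.43 (adjusted p in edgeR 0.898 for both). For LINC01419 it was -1.65 ± 0.36 (adjusted p in edgeR 0.715). For TMPRSS15, PTPN22 and LRP3 it was 0.51 ± 0.62, -0.07 ± 0.33 and -0.11 ± 0.51. A gene called in 1 sort was therefore not shown to differ between the sorts by edgeR.

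**Figure D3:**
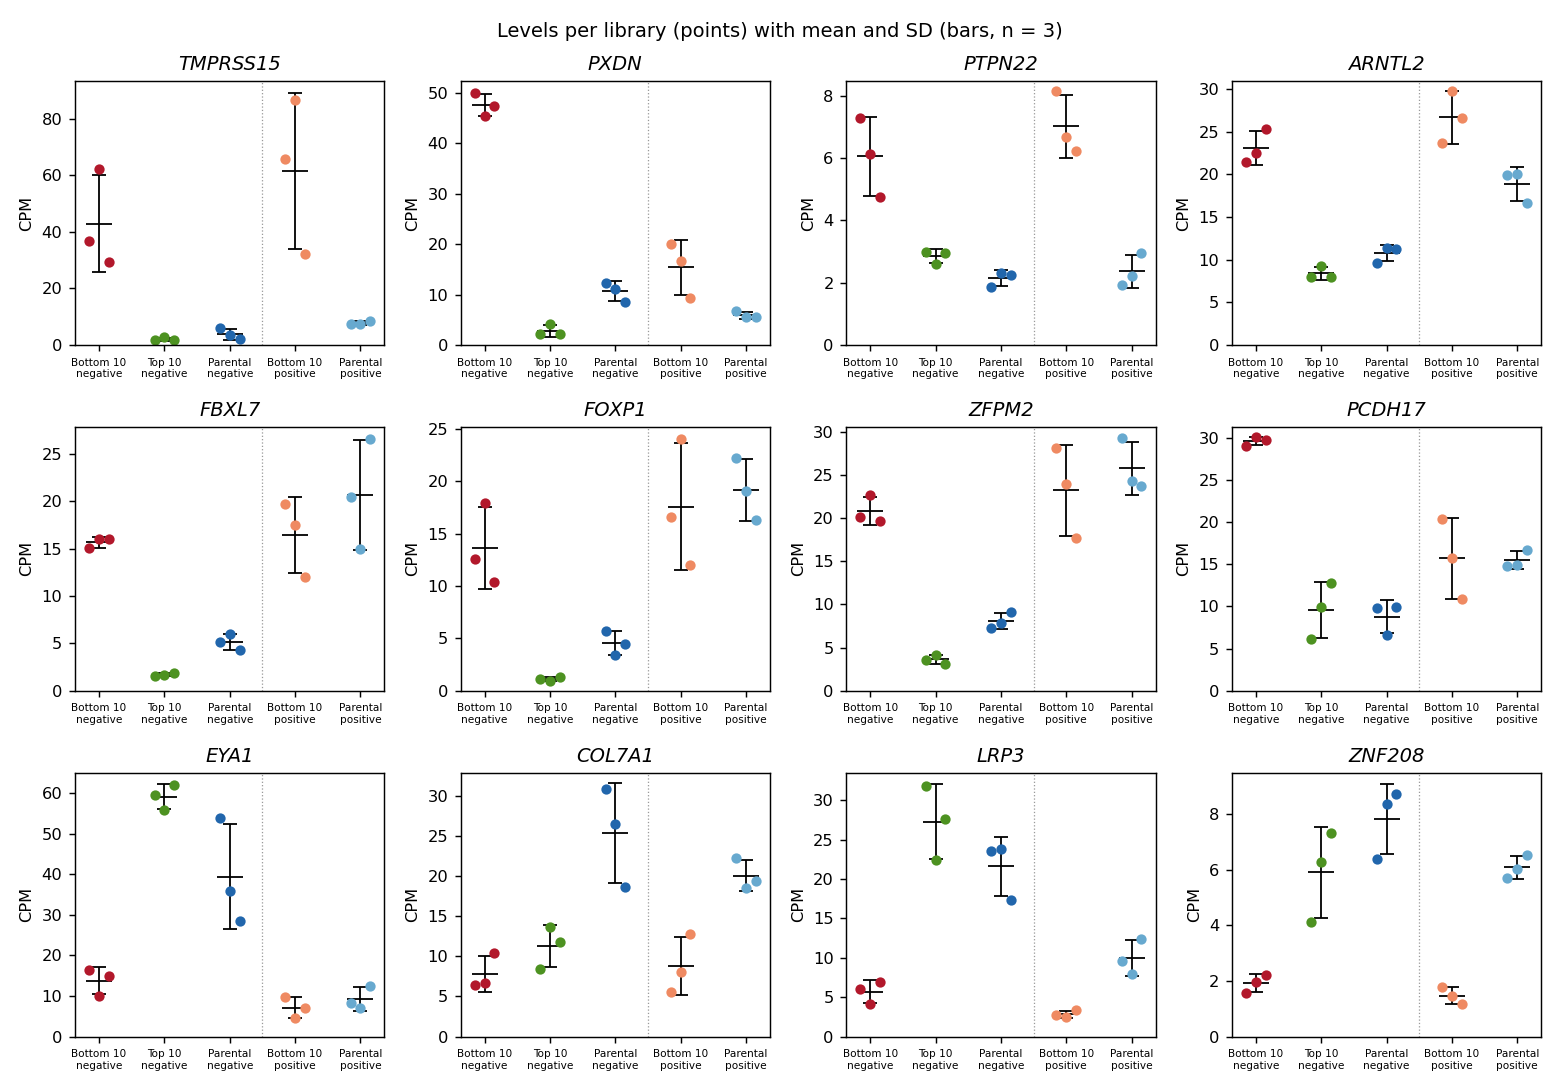
Points are single libraries in CPM, and bars give the mean and SD of 3 libraries, with the negative sort left and the positive sort right of the dotted line in each panel. TMPRSS15, PTPN22, LRP3 and ZNF208 separate Bottom 10 from parental cells in both sorts, while FBXL7, FOXP1 and ZFPM2 are, of the 5 groups drawn, lowest in Top 10 negative and Parental negative cells.

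Top 10 negative cells also went through 10 rounds, but had stayed above the membrane. Between Bottom 10 negative and Top 10 negative cells 205 genes were called, 1.33% of those tested, in a fit that does not pair libraries by number. With a replicate block it was 290. The count of 205 became 91, 96 and 107 without Bottom 10 negative replicate 2 or Top 10 negative replicate 1 or 2. The values below share the Bottom 10 negative libraries with the comparison against parental cells, so they are not independent of it. TMPRSS15 averaged 42.9 ± 17.3 CPM in Bottom 10 negative, 2.06 ± 0.540 CPM in Top 10 negative and 3.83 ± 1.97 CPM in Parental negative cells (SD, n = 3 each), and Bottom 10 over Top 10 negative was called (log2 fold change 4.38, SE 0.50, adjusted p in edgeR 1.31e-05). PXDN had 49.9, 45.5 and 47.4 CPM in Bottom 10 negative cells, against 2.12, 4.13 and 2.09 CPM in Top 10 negative cells (log2 fold change 4.09, SE 0.40, adjusted p in edgeR 1.12e-06). BTBD11, FOXP1 and FBXL7 had log2 fold changes over Top 10 negative cells of 5.63 ± 0.55, 3.61 ± 0.35 and 3.22 ± 0.30 (adjusted p in edgeR 1.12e-06 for each). FOXP1 had 12.6, 18 and 10.4 CPM in Bottom 10 negative cells, against 1.13, 0.953 and 1.27 CPM in Top 10 negative cells, so that the Top 10 negative libraries were below those of Parental negative cells too. In Top 10 negative over Parental negative cells the log2 fold change was -3.04 for BTBD11, -2.02 for FOXP1 and -1.62 for FBXL7 (adjusted p in edgeR 0.0472, 0.0236 and 0.0391).

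Among the genes lower than in parental cells, EYA1 had 16.4, 9.98 and 14.9 CPM in Bottom 10 negative cells, against 59.5, 55.9 and 62 CPM in Top 10 negative cells (log2 fold change -2.11, SE 0.30, adjusted p in edgeR 2.64e-04). SOX8 had 0.0565, 0.232 and 0.0433 CPM in Bottom 10 negative cells, against 7.28, 14.2 and 2.60 CPM in Top 10 negative cells (log2 fold change -5.99, SE 1.13, adjusted p in edgeR 0.00448). Both were low in every Bottom 10 negative library and higher in every Top 10 negative one, and both calls, like the 5 above, held without any 1 of these 6 libraries. COL7A1, by contrast, had 6.39, 6.63 and 10.4 CPM in Bottom 10 negative cells, against 8.46, 13.6 and 11.7 CPM in Top 10 negative cells, groups that overlap (log2 fold change -0.53, SE 0.31, adjusted p in edgeR 0.726). Its log2 fold change over Parental negative cells was -1.17 ± 0.31 in Top 10 negative cells and -1.70 ± 0.31 in Bottom 10 negative cells. TAGLN likewise had -1.17 ± 0.36 in Top 10 negative and -1.63 ± 0.36 in Bottom 10 negative cells over Parental negative cells. The direct difference between Bottom 10 and Top 10 negative cells was -0.46 ± 0.36 for TAGLN and 0.46 ± 0.14 for THOC5, neither called, which does not show that the groups were alike.

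The number of rounds differs between Bottom 10 and Bottom 5 negative cells, and 18 genes were called between them, 0.117% of those tested. Along 0, 5 and 10 rounds the mean of PXDN was 10.6 ± 2.00 CPM, 10.0 ± 5.89 CPM and 47.6 ± 2.21 CPM (Parental, Bottom 5 and Bottom 10 negative cells, SD, n = 3 each), and Bottom 10 over Bottom 5 was called (log2 fold change 2.25, SE 0.37, adjusted p in edgeR 0.00760). KCNJ8 was at 0.0765 ± 0.0663 CPM, 0.0504 ± 0.0499 CPM and 1.24 ± 0.357 CPM in the same order (log2 fold change 4.39, SE 0.81, adjusted p in edgeR 0.0195 for 10 over 5 rounds). PTPN22 was at 2.15 ± 0.245 CPM, 2.34 ± 0.0730 CPM and 6.06 ± 1.27 CPM (log2 fold change 1.37, SE 0.23, adjusted p in edgeR 0.0111), and PTPRD at 1.47 ± 0.837 CPM, 1.37 ± 0.658 CPM and 6.09 ± 1.30 CPM (log2 fold change 2.15, SE 0.44, adjusted p in edgeR 0.0485). These 4 genes were near the parental level at 5 rounds and above it at 10. FBXL7 was at 5.15 ± 0.851 CPM, 18.5 ± 6.85 CPM and 15.7 ± 0.558 CPM, and FOXP1 at 4.54 ± 1.15 CPM, 25.8 ± 1.95 CPM and 13.6 ± 3.91 CPM. Both were already above the parental level at 5 rounds, and the difference of 10 from 5 rounds was -0.23 ± 0.27 and -0.92 ± 0.30, neither called. EYA1 was at 39.4 ± 13 CPM, 4.81 ± 0.188 CPM and 13.8 ± 3.36 CPM, lowest at 5 rounds, and Bottom 10 over Bottom 5 was called (log2 fold change 1.51, SE 0.30, adjusted p in edgeR 0.0361). All of these share the Bottom 10 negative libraries with the comparison against parental cells. The median level of chromosome 20 genes relative to all libraries was -0.16, -0.23 and -0.19 in Bottom 5 negative cells. It was 0.07, 0.04 and 0.08 in Bottom 10 negative and 0.05, 0.09 and 0.07 in Parental negative cells. The 3 groups are thus not shown to be steps of 1 course, and the part of this in the values above was not tested. The count of 18 was 2, 7 and 10 without Bottom 10 negative replicates 1, 2 and 3, and 13, 4 and 6 without Bottom 5 negative replicates 1, 2 and 3. None of these 5 calls held in all 6 such fits: each was lost without Bottom 5 negative replicates 2 and 3 and without Bottom 10 negative replicate 1 (adjusted p up to 0.311). KCNJ8, PTPN22 and PTPRD were also lost without Bottom 10 negative replicate 2, PTPRD and EYA1 without Bottom 10 negative replicate 3, and KCNJ8 and EYA1 without Bottom 5 negative replicate 1.

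The lists describe the genes around these calls. They held 1073 genes in 43 lists, of which 991 were tested, and 9 lists had a called member and 34 had none. In bulk libraries such as these, fewer cells of a kind and less RNA per cell cannot be told apart. The 33 genes of G2 and mitosis were all above 0, with a median of 0.47 and 0 called. Their median level relative to all libraries was 0.18, 0.01 and 0.33 on the log2 scale in Bottom 10 negative cells, against -1.02, -0.09 and 0.21 in Parental negative cells. Parental negative replicate 1 was far below the other 5, and without it 28 of 33 were above 0 and the median was 0.23. CDC25C, a phosphatase that triggers mitosis, had 21.7, 19.9 and 19.2 CPM in Bottom 10 negative cells, against 9.82, 13.1 and 12 CPM in Parental negative cells (log2 fold change 0.80, SE 0.22, adjusted p in edgeR 0.149), and HMMR, a spindle protein, had a log2 fold change of 0.63. Of 33 genes of DNA replication 29 were above 0, with a median of 0.23, but 11 of 33 and -0.08 without that library. PRIM1, a primase subunit, and CDT1, a licensing factor, were at 0.67 and 0.62, not called. Of 30 DNA damage and repair genes 28 were above 0 (median 0.16), and 15 without that library, with FANCI at 0.56 and MRE11A at 0.30. The 22 cohesin, condensin and CTCF genes had 19 above 0, and 15 without it, with STAG2 and RAD21, both subunits of cohesin, at 0.53 and 0.39.

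Hypoxia and glycolysis genes were above 0 in 30 of 31 cases, with a median of 0.34 and 0 called, and in 26 of 31 with a median of 0.42 without Parental negative replicate 1. Their relative level was 0.44, 0.35 and -0.07 in Bottom 10 negative cells, against -0.10, -0.11 and -0.20 in Parental negative cells, so the groups did not overlap. PGK1, a glycolytic enzyme, had 1219.5, 1150.5 and 786 CPM in Bottom 10 negative cells, against 671, 671 and 664 CPM in Parental negative cells (log2 fold change 0.65, SE 0.24, adjusted p in edgeR 0.378), and ADM, a secreted peptide induced by hypoxia, a log2 fold change of 1.02. Of 22 inflammatory and NF-κB genes 17 were above 0 (median 0.47), and 19 with a median of 0.83 without Parental negative replicate 1. IL1B, a cytokine, had 6.11, 6.03 and 1.65 CPM in Bottom 10 negative cells, against 0.935, 0.317 and 0.563 CPM in Parental negative cells (log2 fold change 2.92, SE 0.75, adjusted p in edgeR 0.114). CXCL8, a chemokine of neutrophils, had 59.3, 45.7 and 23.2 CPM in Bottom 10 negative cells, against 9.06, 12.8 and 11.5 CPM in Parental negative cells (log2 fold change 1.94, SE 0.55, adjusted p in edgeR 0.163). In both genes the groups did not overlap, Bottom 10 negative replicate 3 was the lowest of its group, and neither was called.

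The dedifferentiated melanoma genes had 23 of 30 above 0 (median 0.39), and the targets of YAP and TEAD 27 of 32 (median 0.30), 22 of 32 with a median of 0.18 without Parental negative replicate 1. DLC1, a GTPase-activating protein, had 76.9, 139 and 91.2 CPM in Bottom 10 negative cells, against 25.8, 40.1 and 49.4 CPM in Parental negative cells, apart but not called (log2 fold change 1.42, SE 0.36, adjusted p in edgeR 0.102), and PTPN14 was at 0.60. AXL, a receptor kinase of the dedifferentiated state, was at 0.83. The melanocyte lineage list had 8 of 20 above 0 (median -0.08), but 14 of 20 with a median of 0.28 without Parental negative replicate 1, with CAPN3 at -2.61 (adjusted p in edgeR 0.0620) and the ganglioside enzyme ST8SIA1 at 1.95. AP-1 and immediate early genes had 20 of 29 above 0, with JUN at 0.97 and MAFF at 0.55. Outputs of the MAPK pathway had 13 of 21, with FOSL1 at 0.96 and SPRY4 at -1.11. Growth factor lists had 15 of 24 above 0 for PDGF, VEGF and FGF, with PDGFB called, and 8 of 14 for ERBB receptors and ligands, with ERBB4 at 1.75 and TGFA at -0.69. In the positive sort, 11 of the 33 genes of G2 and mitosis and 9 of the 33 genes of DNA replication were above 0 in Bottom 10 positive over Parental positive cells, with medians of -0.08 and -0.11. There, 26 of 31 hypoxia and glycolysis genes (median 0.39) and 20 of 22 inflammatory genes (median 0.92) were above 0. None of the genes given by log2 fold change alone in these list accounts was called. CAPN3 and ERBB4 were low, with means of 0.167 and 0.783 CPM in Bottom 10 negative cells. Their means in Parental negative cells were 1.06 and 0.231 CPM.

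**Figure D4:**
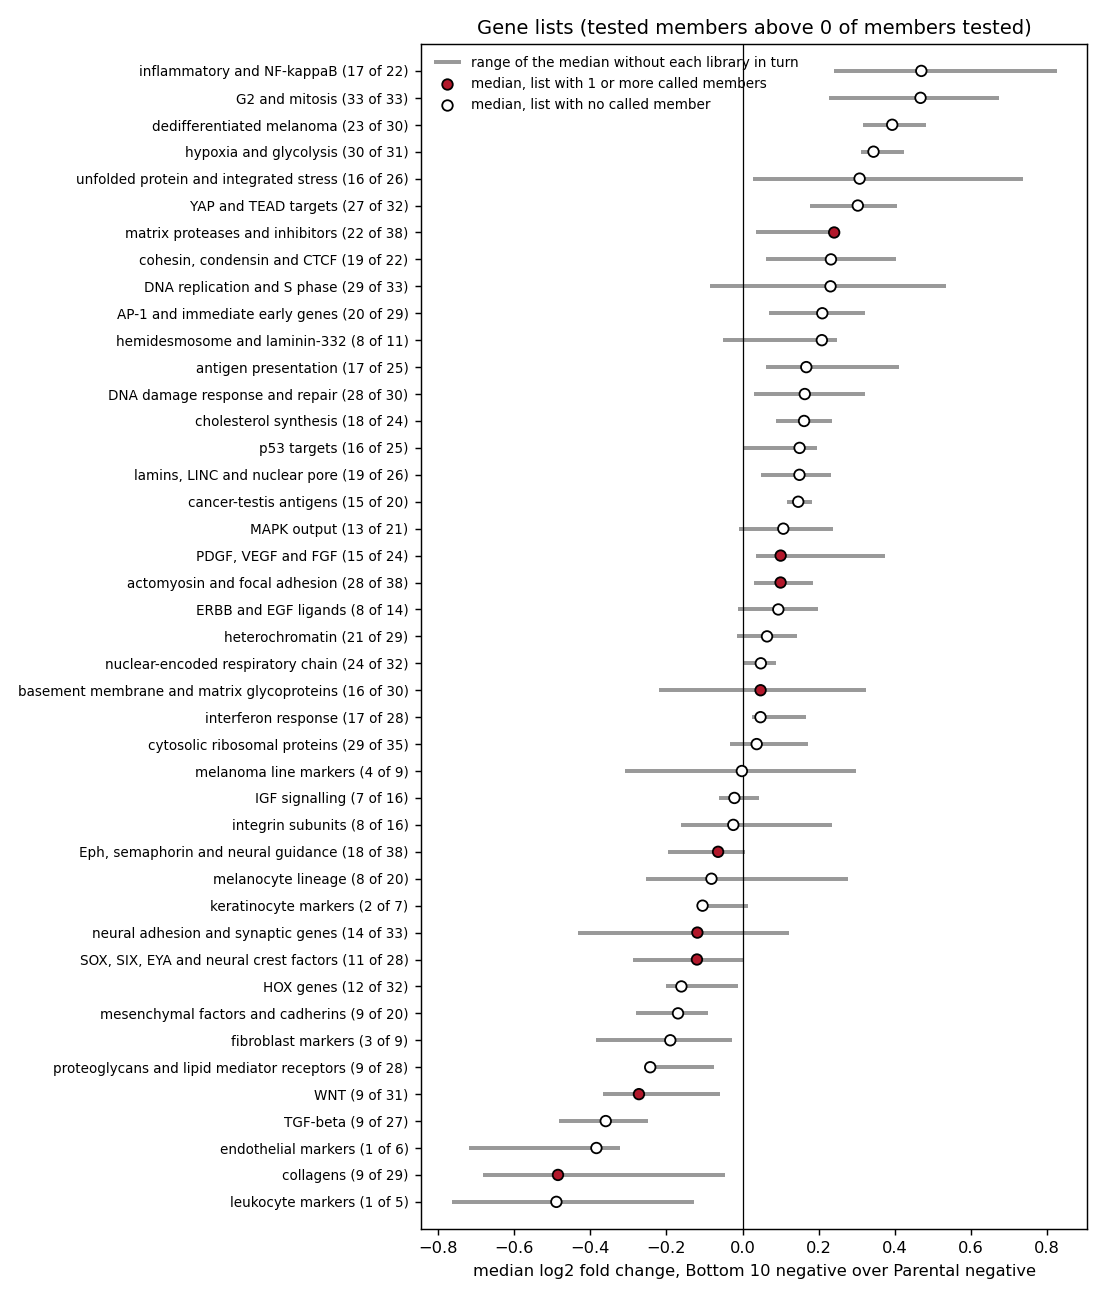
Each row is a gene list, with its median log2 fold change of Bottom 10 negative over Parental negative cells as a circle, filled where 1 or more members were called, and a gray bar for the range of that median when each of the 6 libraries was left out in turn. Row labels give tested members above 0 of members tested. The bar of the 33 genes of G2 and mitosis runs from 0.23 to 0.67, and that of the collagens from -0.68 to -0.05.

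Several lists leaned below 0. The TGF-β list had 9 of 27 above 0 (median -0.36), with BMP7, a bone morphogenetic protein, at 0.226, 0.365 and 0.260 CPM in Bottom 10 negative cells, against 2.16, 2.38 and 2.59 CPM in Parental negative cells (log2 fold change -3.02, SE 0.79, adjusted p in edgeR 0.124) and SMAD3 at 0.57. BMP7 was low in all 3 Bottom 10 negative libraries without passing the test. The WNT list had 9 of 31 above 0 (median -0.27), with LRP3 called. LGR5, a receptor of R-spondins, had 0.113, 0 and 0 CPM in Bottom 10 negative cells, against 0.117, 1.59 and 3.49 CPM in Parental negative cells. Proteoglycans and lipid mediator receptors had 9 of 28 (median -0.24), with SCARA5 at -1.84 and GPC4 at -1.40, and mesenchymal factors and cadherins 9 of 20 (median -0.17), with ZEB2 at 0.87 and PCDH7 at -1.33. HOX genes had 12 of 32 (median -0.16), with HOXB5 and HOXB6 at -0.68 and -0.39. Neural adhesion and synaptic genes had 14 of 33 (median -0.12), with PTPRD called higher and the glutamate receptor GRM8 at 0.848, 0.199 and 0.260 CPM in Bottom 10 negative cells, against 13.9, 2.54 and 1.52 CPM in Parental negative cells (log2 fold change -3.83, SE 0.98, adjusted p in edgeR 0.114). The high GRM8 library was Parental negative replicate 1. Without Parental negative replicate 1 these lists moved toward 0, to medians of -0.25 for TGF-β, -0.06 for WNT, -0.08 for proteoglycans, -0.09 for mesenchymal factors and -0.01 for HOX genes, and to 0.12 for neural adhesion. Eph, semaphorin and guidance genes had 18 of 38 (median -0.06), with PLXDC2 called higher and EPHB3 lower. IGF genes had 7 of 16 (median -0.02), with IGFBP5 at -2.38 and IGF2 at 0 in all 3 Bottom 10 negative libraries and at 0, 0.106 and 1.75 CPM in Parental negative cells.

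The other lists had medians between 0.04 and 0.31 before markers of other cell types. The median was 0.31 for the unfolded protein and integrated stress list (ATF3 at 1.51, VLDLR at 1.19), and 0.74 without Parental negative replicate 1. It was 0.17 for antigen presentation (PSMB9 at 0.50, PSMB8 at 0.26) and 0.05 for the interferon response (IRF7 at -0.55). The medians were 0.16 for cholesterol synthesis (MSMO1 at 0.59, CYP51A1 at 0.44) and 0.15 each for p53 targets (GADD45A at 0.87, PMAIP1 at 0.77) and the nuclear envelope (NUP155 at 0.54, NUP133 at 0.27). Actomyosin and focal adhesion genes had a median of 0.10 (TPM4 at 0.44), heterochromatin genes 0.06 (ATRX at 0.30, SUZ12 at 0.29), respiratory chain genes 0.05 (UQCRC2 at 0.28, NDUFS1 at 0.18) and ribosomal proteins 0.04 (RPLP1 at 0.23, RPL3 at 0.11). Without Parental negative replicate 1 the median was 0.41 for antigen presentation, 0.15 for the interferon response and 0.17 for ribosomal proteins. It was then 0.05 for the nuclear envelope, 0.03 for actomyosin, -0.01 for heterochromatin, 0.0014 for the respiratory chain, 0.11 for cholesterol synthesis and 0.08 for p53 targets. Cancer-testis genes had a median of 0.15, with GAGE2A at 2.44 and MAGEA1 at -1.04, where close copies of both make the counts uncertain. Markers of other cell types held 0 called genes. Keratinocyte markers summed to 199 to 222 CPM in Bottom 10 negative and 207 to 245 CPM in Parental negative cells, with DSG3, IVL and PKP1 at 0 in all 6 libraries (DSC3 at 0.37, JUP at -0.42). Fibroblast markers summed to 87.9 to 107 CPM against 118 to 199.9 CPM (DCN at 0.95, S100A4 at -0.93), endothelial markers to 12.4 to 16.7 CPM against 10.8 to 13.4 CPM (TIE1 at 2.13, ESAM at -1.60), and leukocyte markers to 45.8 to 119 CPM against 50.7 to 84.8 CPM, with CD3E and MS4A1 at 0 in all 6 (LYZ at -0.62, CD14 at -1.33), in each case Bottom 10 negative against Parental negative cells. Of the tested markers 2 of 7 were above 0 for keratinocytes, 3 of 9 for fibroblasts, 1 of 6 for endothelium, which was TIE1, and 1 of 5 for leukocytes. The medians of these lists were -0.11, -0.19, -0.38 and -0.49. CD14 was low, with means of 0.206 CPM in Bottom 10 negative and 0.531 CPM in Parental negative cells. The fibroblast sums did not overlap, and their part in the results was not tested.

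By chromosome, genes on chromosome 13 stood lowest. Its 276 tested genes had a median log2 fold change of -0.22, and 75.7% of them were below 0, whereas the medians of the other chromosomes lay between -0.09 and 0.10. The median level of chromosome 13 genes relative to all libraries was -0.13, -0.09 and -0.17 in Bottom 10 negative cells, against 0.06, 0.07 and 0.05 in Parental negative cells. Chromosome 13 was singled out by its low median in this comparison and was already known from earlier results of these data. That the groups did not overlap is therefore a description with no test. Bottom 10 positive cells had -0.24, -0.27 and -0.34, against -0.02, 0.05 and 0.14 in Parental positive cells, libraries that did not enter that median (exact two-sided permutation p = 0.1, the smallest that 3 against 3 libraries can give). Because of those earlier results, the positive sort values are no independent evidence either. Bottom 5 negative cells lay between -0.09 and -0.03, and Top 10 negative cells between 0.03 and 0.09. Of the 50 called genes 7 were on chromosome 13, 2.54% of its tested genes against 0.325% of all tested genes. They went both ways: PCDH17, FAM155A and TRPC4 rose, and ATP8A2, PDX1, MCF2L and TBC1D4 fell. The number of gene copies in these cells was not measured.

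**Figure D5:**
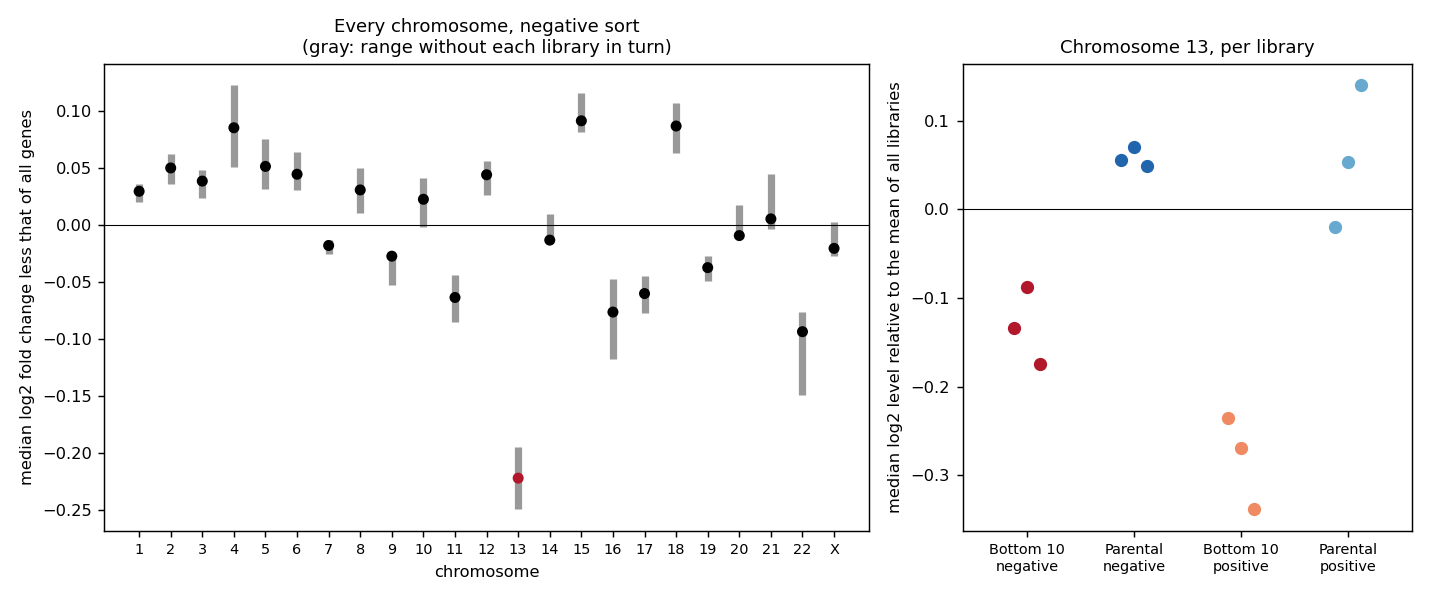
On the left, points are chromosomes by their median log2 fold change after subtracting the all-gene median, with gray bars for its range when each of the 6 libraries was left out in turn. On the right, points are libraries, with the median log2 level of chromosome 13 genes relative to the mean of all libraries. Chromosome 13 is at -0.22, and its level is lower in the 3 Bottom 10 than in the 3 parental libraries of each sort.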

How the data were processed

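RNA of 30 A375 libraries in 10 groups of 3 had been selected for polyadenylated transcripts, per the labels' protocols. The deposited values are whole-number counts per gene symbol. The submitters' processing notes name STAR, HTSeq, DESeq and hg19, without a strand setting. All 30 libraries held 14258919 to 29134945 gene counts, and the number of counts limits the precision of low genes. Rows that name no gene, 22.5 to 26.5% of the reads in these 6 libraries, were left out. Mitochondrial genes are not analysed here.

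From these counts, edgeR 4.0.16 (R 4.3.3) fitted all 30 libraries by group after TMM scaling and its filter on low counts (minimum 10 in a library, 15 in all). Quasi-likelihood tests were adjusted by Benjamini-Hochberg over 15381 genes at 0.05. The fit was tested on simulated data.

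The members, lists and rules were chosen with earlier results of these data known, and the lists draw in part on an earlier analysis of the same libraries, so their directions are no independent evidence. The rule for naming took ITGB4, the 12 highest and 12 lowest called genes at 5 CPM or more without overlap, the smallest p each way and within each list, and the highest levels. Of the 50 called genes 15 fall outside it (CNTN5, BTBD11, TRPC4, KCTD8, TSPAN5, RAB8B, TBC1D4, P2RX6, CEBPA, LANCL3, ZNF536, PDX1, FAM174B, VAV3 and LOC158435), were named after their values were seen, and complete the account, except 1 called gene that is not reported here. Chromosomes came from RefSeq on GRCh38.p14 by symbol for 98.3% of tested genes.

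Same-numbered Bottom 10 negative and Top 10 negative libraries deviated together from their group means (correlations 0.406, 0.629 and 0.693), so their numbers were taken to pair them, from the data. The tests reported between these groups carry no term for that pairing, which only the replicate block holds. Alternatives were DESeq2 1.42.0, other scaling, no filter, a replicate block, fewer libraries in the fit, and each library left out.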

Additional observations from a re-analysis of the deposited data

How the results depend on the processing

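For Bottom 10 negative over Parental negative cells, 50 genes were called. The count was 5 to 39 with 1 library left out, 174 with DESeq2 on all 30 libraries and 33 without the filter on low counts. With only these 6 libraries in the fit it was 0. It was 111 without 6 libraries of other groups far from the rest on principal component 2, a choice made after seeing the data. Among those left out were Top 10 negative replicate 1, Bottom 10 positive replicate 3 and Bottom 5 negative replicate 2, each part of a comparison reported here. The replicate block gave 73 genes. Same-numbered Bottom 10 negative and Parental negative libraries correlated at 0.364, -0.402 and 0.483, so the numbers do not pair them. For Bottom 10 positive over Parental positive cells the count of 38 was 11 to 18 with 1 library left out, 116 with DESeq2 and 0 with only those 6 libraries. The difference between the sorts had 0 calls in edgeR and 3 with DESeq2. For Bottom 10 negative over Top 10 negative cells the count of 205 was 91 to 157 with 1 library left out. It was 394 with DESeq2, 290 with the replicate block and 157 with only those 6 libraries in the fit. Without the libraries far out on component 2 it was 137, with 109 of the 205 among them. For Bottom 10 negative over Bottom 5 negative cells the count of 18 was 2 to 13 with 1 library left out, 95 with DESeq2, 38 with the replicate block (correlations 0.203, -0.285 and 0.552, no pairing) and 0 with only those 6 libraries. The cause of these moves was not tested. Over the named genes no alternative turned a direction: 1193 values stayed on their side of the threshold, 257 missed it and 18 passed it. The 1193 include genes that were not called and stayed uncalled. Of the 50 called genes, 36, 36 and 26 lost the call without Bottom 10 negative replicates 1, 2 and 3. Without Parental negative replicates 1, 2 and 3 it was lost by 31, 45 and 15, and without the filter on low counts by 17. ITGB4 kept its side under every alternative run. With 3 libraries a group, and with low counts for several named genes, an uncalled gene may still differ.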
